A study of Mus musculus with 6 samples.

Results

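Complement components and receptors were examined in mouse bone marrow-derived macrophages, the phagocytes grown in culture from marrow progenitors. The set held 9 genes of 55263 annotated genes and was chosen by symbol: C1qa, C1qb, C1qc, C3, Cfb, Cfp, C3ar1, C5ar1 and Serping1. RNA had been sequenced from 6 libraries in 3 groups of 2. The control group is labelled wild type and carries no treatment in its labels, the LPS group was given lipopolysaccharide, a bacterial cell wall component sensed by macrophages through TLR4, and the LPS+HACA group was given LPS with a preparation called HACA. For the treated groups the labels give the treatment in place of a genotype. They give no strain, age, dose or time and do not spell out HACA, while the series title concerns a hyaluronic acid nanomedicine for psoriasis. Nothing says that the 2 libraries of a group came from separate cultures or animals, so each p-value measures only the spread between these libraries, which can be technical.

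Complement is a cascade of plasma and cell-derived proteins that marks particles for uptake and calls in leukocytes. C1q, built from the products of C1qa, C1qb and C1qc, starts the classical pathway by binding antibody or surface ligands, and C3 is the protein on which all pathways converge. Factor B (Cfb) and properdin (Cfp) form and stabilise the enzyme that amplifies C3 cleavage. The peptides released from C3 and C5 act on the receptors encoded by C3ar1 and C5ar1, and Serping1 encodes the C1 inhibitor. Macrophages are a main source of C1q and also make C3 and properdin.

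The promoter sequences below are those of C3, the member that rose with LPS, and of C1qb and C1qc, whose gene counts passed the test in no comparison in the model with group as its only term and TMM scaling. They come from RefSeq for GRCm38.p6, run from 250 bases before the start site to 50 bases from it on, and are written 5′ to 3′ on the minus strand, which carries all 9 genes. Of the 9 members, 6 had an entry in the table, and C1qa, Cfb and Serping1 had none. Capitals mark the letters TTGCNNAA, the pattern bound by C/EBP factors, and GAGGAA, the core pattern bound by PU.1 (TTCCTC where it is read on the other strand). Both factors act in macrophage gene expression.

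C3 (chr17:57228087-57228386): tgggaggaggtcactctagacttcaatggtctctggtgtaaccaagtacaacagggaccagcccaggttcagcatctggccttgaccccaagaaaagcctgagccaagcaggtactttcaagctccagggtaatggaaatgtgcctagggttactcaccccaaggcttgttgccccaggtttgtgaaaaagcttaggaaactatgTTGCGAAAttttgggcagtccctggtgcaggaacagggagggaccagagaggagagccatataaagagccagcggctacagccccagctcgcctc

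C1qb (chr4:136886151-136886450): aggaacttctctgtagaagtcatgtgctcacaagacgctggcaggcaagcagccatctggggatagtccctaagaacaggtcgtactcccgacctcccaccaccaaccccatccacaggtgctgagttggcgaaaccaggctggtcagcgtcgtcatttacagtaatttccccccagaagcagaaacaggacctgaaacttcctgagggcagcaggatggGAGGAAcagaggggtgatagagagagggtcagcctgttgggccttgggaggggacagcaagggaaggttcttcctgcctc

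C1qc (chr4:136892865-136893164): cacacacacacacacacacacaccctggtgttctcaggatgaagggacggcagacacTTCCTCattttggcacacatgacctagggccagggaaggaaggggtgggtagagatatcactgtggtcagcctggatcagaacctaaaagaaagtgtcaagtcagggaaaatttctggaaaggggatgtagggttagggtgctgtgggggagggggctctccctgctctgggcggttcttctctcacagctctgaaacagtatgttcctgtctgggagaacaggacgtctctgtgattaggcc

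In the C3 promoter the C/EBP letters began at position −45, counting the start site as 0. In C1qb the PU.1 core began at −30 and in C1qc at −193, there on the opposite strand. The Cfp promoter held the PU.1 core at 6 and 22, on the opposite strand, and the C3ar1 and C5ar1 promoters held neither pattern. Over 32851 promoters of the same length and on both strands, the PU.1 core was found in 28.3% and the C/EBP letters in 10.8%. An NF-kB pattern (GGGA, any 4 bases, then CC) was found in 20.7% of promoters and in those of C3 (at −197, −33 and −10), C1qb (at −191 and −190, overlapping) and C1qc (at −40). An interferon response pattern (GAAA, any 2 bases, then GAAA) was found in 3.44% of promoters and in none of the 6 members'. The C/EBP match in C3 overlapped no other match. In the annotation used for the counts, the first exon of the coding C1qc transcript runs from 136892844 to 136893065. The RefSeq start of C1qc lies inside that exon, so much of the C1qc window is annotated exon. The NF-kB match of C1qc at −40 lies in the exon, and the PU.1 core at −193 lies before it. A match describes letters in the window and shows neither binding nor a cause.

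The libraries held 12529874 to 15379496 counts. The deposited counts are per transcript and were nearly all assigned to transcripts that had exonic bases shared with no other annotated transcript, called own bases here. From this it was inferred that each member was measured mainly over its own bases, as the counting rule is not stated. The words counted over are used below in that inferred sense. In C1qa, C1qb and C3ar1 all exonic bases were own, and the share was 88.7% in C1qc, 82.7% in Cfp and 70.4% in C3. Serping1 had 38.5%, C5ar1 3.54% and Cfb 2.19%. Results for the 7 tested members concern the genes that passed the filter on low counts, all but Cfb and Serping1. Levels are in CPM, counts brought to a common library size with TMM factors. The TMM factors were 1.158 and 1.163 in control, 0.8121 and 0.6765 with LPS and 1.186 and 1.140 with LPS+HACA, so the scaling raised LPS levels against the other groups. Over the 17113 genes tested, the median log2 fold change for LPS against control was −0.053 with TMM and −0.689 with library totals. The medians for LPS+HACA against LPS were 0.059 and 0.701. Macrophage markers summed to 31123 to 53233 CPM and were led by Lyz2, the lysozyme gene, with none of the 8 at 0. Adgre1, which encodes the macrophage marker F4/80, had 4 to 10 counts a library and was counted over 97 of its 3238 exonic bases.

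Among the members, C3 rose with LPS and none of the other 6 tested genes passed the test. C3 stood 3.35-fold higher in LPS than in control, 1 of 7 members higher and 0 of 7 lower at a Benjamini-Hochberg adjusted p under 0.05 from edgeR's quasi-likelihood test, where 15.9% of all genes tested were higher and 14.3% lower. The unadjusted p of that test was under 0.05 for that 1 member alone, beside 7212 of all 17113 genes. Limma-voom and DESeq2 also called 1 member higher and 0 lower. In LPS+HACA against LPS, 0 of 7 were called in either direction (5.74% higher and 7.67% lower over all genes). There C3 and C5ar1 stood lower in both LPS+HACA libraries than in either LPS library, as did 27.3% of all genes. In LPS+HACA against control, 0 of 7 were called (0.894% higher and 0.257% lower over all genes). Here 1 member (C3) was higher without overlap and 3 (C1qa, C1qc and Cfp) were lower, against 23.4% and 23.1% of all genes, and limma-voom and DESeq2 also called 0. A replicate block added calls, though the replicate number is not stated to mark a shared culture or day. In LPS against control it also called C1qc lower (3384 of all 17113 genes lower). In LPS+HACA against LPS it called C3 and C5ar1 lower (2356 of all genes). In LPS+HACA against control it called C3 higher and C1qc lower (628 and 307 of all genes). All 3 comparisons share libraries with each other, so they are not independent, and their values are given side by side. In bulk RNA, fewer cells of a type and less RNA per cell cannot be told apart.

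**Figure D1:**
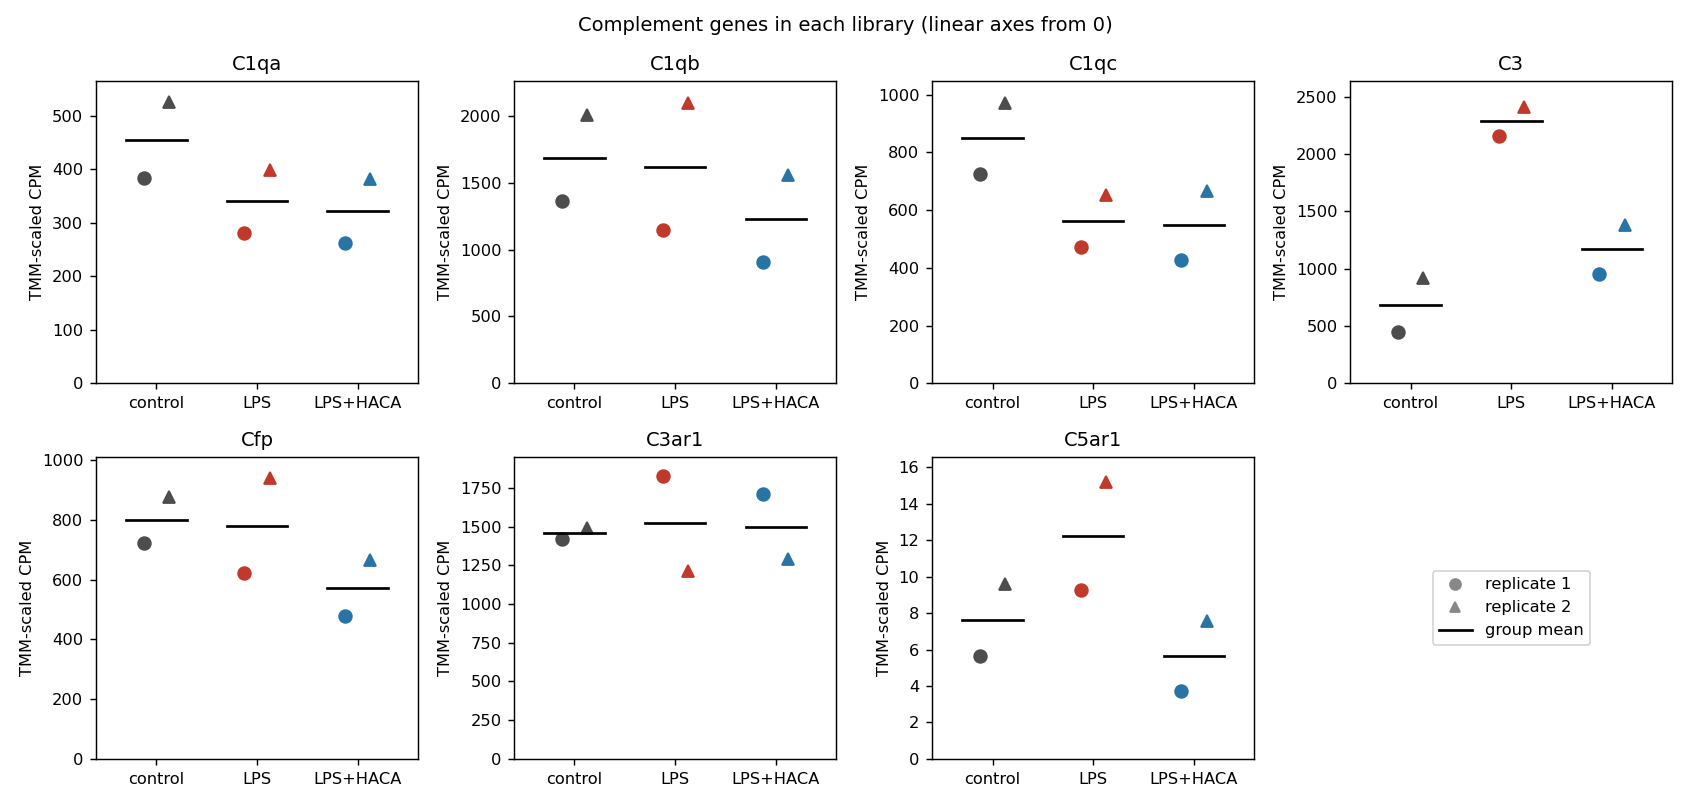
Level of each tested complement gene in every library, in TMM-scaled CPM on linear axes from 0, with circles for replicate 1, triangles for replicate 2 and a bar for the group mean. C3 is at 2161.0 and 2414.7 CPM in LPS, above all 4 other libraries, and the C1q genes and Cfp are higher in replicate 2 than in replicate 1 of every group.

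C1qa lies on chromosome 4 from 136895917 to 136898803 (GRCm38), beside C1qc (136889804 to 136893065) and C1qb (136880129 to 136886187), all within 18675 bases. C1qa was at 382.4 and 524.4 CPM in control, 281.0 and 398.5 with LPS and 261.9 and 381.3 with LPS+HACA. Both LPS+HACA libraries were below both control libraries, while LPS overlapped control through its replicate 2. The log2 fold change was −0.42 ± 0.28 (SE, n = 2 libraries a group, adjusted p = 0.302 from edgeR) for LPS against control and −0.08 ± 0.28 (adjusted p = 0.878) for LPS+HACA against LPS. Against control, LPS+HACA stood at −0.50 ± 0.28 (adjusted p = 0.594).

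C1qb, which encodes the B chain of C1q, was at 1363.4 and 2006.6 CPM in control. It was at 1148.7 and 2094.4 CPM in LPS and at 910.2 and 1554.6 in LPS+HACA. All 3 groups overlapped, and the 2 LPS libraries lay on either side of the control pair. The log2 fold change was −0.06 ± 0.37 for LPS against control, with a 95% interval of −0.90 to 0.79, and −0.40 ± 0.37 (−1.25 to 0.45) for LPS+HACA against LPS. Changes within these intervals, in either direction, were therefore not excluded for C1qb with these libraries.

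C1qc, the C chain, was at 726.6 and 970.2 CPM in control, 471.5 and 653.6 with LPS and 426.1 and 667.1 with LPS+HACA. Both treated groups were below control without overlap, and they overlapped each other. C1qc was the 1 tested member lower without overlap in LPS, as were 35.3% of all genes. Its log2 fold change of −0.59 ± 0.29 did not pass the test (95% interval −1.26 to 0.07, edgeR adjusted p = 0.157). LPS+HACA differed from LPS by −0.04 ± 0.29 (adjusted p = 0.943) and from control by −0.63 ± 0.29 (adjusted p = 0.456). With a replicate block C1qc was called lower in LPS against control (−0.60, edgeR adjusted p = 0.0136) and in LPS+HACA against control. With library totals in place of TMM, C1qa (−1.08, adjusted p = 0.0159), C1qc (−1.26, adjusted p = 0.0098) and Cfp (−0.70, adjusted p = 0.0477) were called lower in LPS against control. With that scaling 5111 of all 17113 genes were called lower there, and their median log2 fold change over all genes tested was −0.689. For LPS+HACA against LPS the same scaling turned all 3 C1q genes to positive values, between 0.28 and 0.62 on the log2 scale, none of them called.

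**Figure D2:**
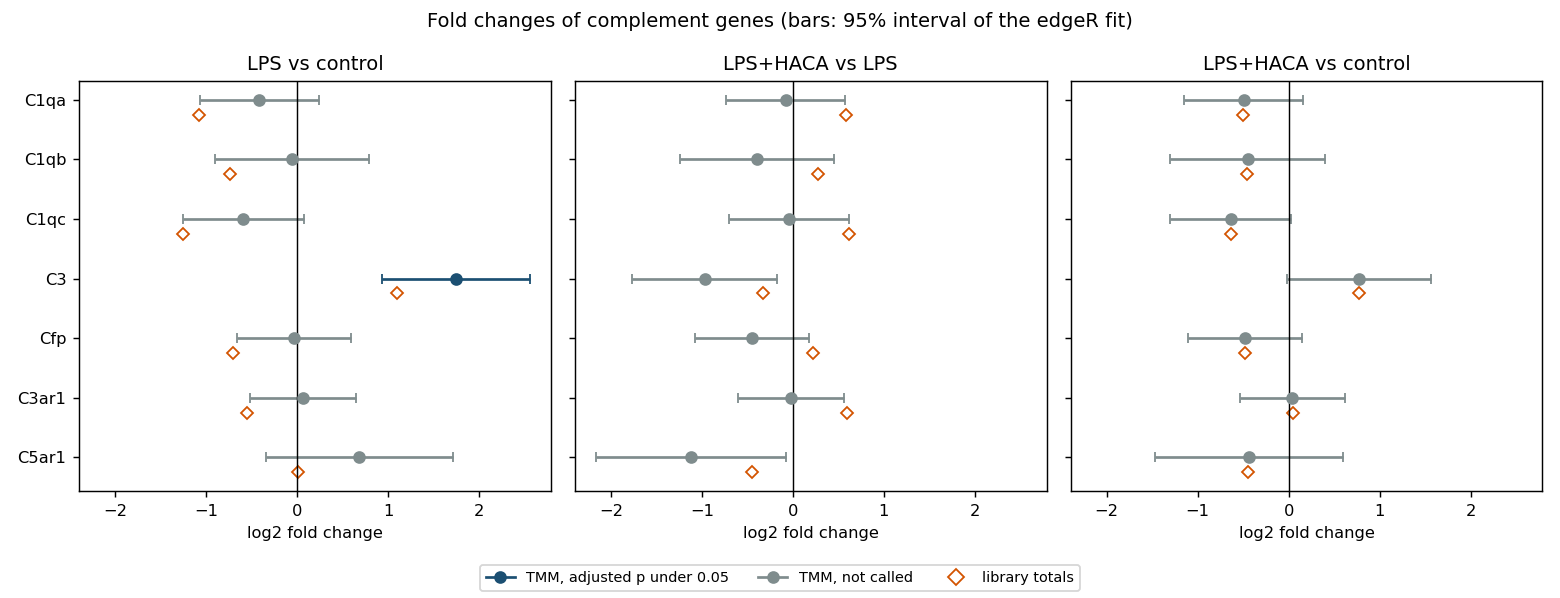
Log2 fold change of each tested complement gene in the 3 comparisons, with circles and 95% intervals from the edgeR fit with TMM scaling and open diamonds for the same fit with library totals. Only C3 in LPS against control is called with TMM (1.75), and in LPS+HACA against LPS the diamonds of the C1q genes, Cfp and C3ar1 lie on the other side of 0 from the circles.

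Ratios between genes of one library do not depend on the library scaling. The FPKM ratio of C1qb to C1qa was 3.409 and 3.657 in control, 3.907 and 5.024 with LPS and 3.323 and 3.897 with LPS+HACA. Both LPS libraries had higher ratios than the 4 others, although LPS replicate 1 was barely above LPS+HACA replicate 2. The ratio of C1qc to C1qa was 1.653 and 1.610 in control, 1.452 and 1.418 with LPS and 1.414 and 1.520 with LPS+HACA. Control had the highest ratios here, and the treated groups overlapped. The 3 chains therefore did not keep 1 ratio over the libraries, and no test was run on these ratios, which were chosen with the gene values known.

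C1qc counts fell into 2 annotated transcripts, and the minor one moved with LPS. The processed C1qc transcript, which has no annotated coding sequence, has 728 own bases (chromosome 4, 136891651 to 136892378, GRCm38) that lie in the second intron of the coding transcript. It had 273 and 353 counts in control, 18 and 4 with LPS and 143 and 174 with LPS+HACA, and it was singled out after these values had been seen. Both LPS libraries were far below the other 4. As a share of all C1qc counts, this was 2.36% (95% Wilson interval 2.10 to 2.65) and 2.41% (2.17 to 2.67) in control. In LPS the share was 0.376% (0.238 to 0.594) and 0.059% (0.0229 to 0.151), and in LPS+HACA 2.04% (1.73 to 2.40) and 1.76% (1.52 to 2.04). These intervals cover counting error only. The 6 shares do not depend on the library scaling either, and those of LPS were below all others.

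In a fit of the same kind to all 31475 transcripts that passed the filter, the processed C1qc transcript fell by 4.23 ± 0.54 on the log2 scale in LPS against control (edgeR adjusted p = 0.00028), where 12.5% of transcripts were lower. Summed over both libraries it had 626 counts in control against 22 with LPS, which after TMM scaling gave a ratio of 18.8 (exact 95% interval 12.3 to 30.2, counting error only). With HACA added to LPS it rose by 3.21 ± 0.53 (adjusted p = 0.00461), where 4.75% of transcripts were higher. LPS+HACA and control differed by −1.01 ± 0.44 (adjusted p = 0.413, 0.327% of transcripts lower), and this passed the threshold without LPS replicate 1 (adjusted p = 0.0455) or without LPS replicate 2 (adjusted p = 0.0426). The coding C1qc transcript, which carries the rest of the gene's counts, stood at −0.58 ± 0.26 in LPS against control (adjusted p = 0.123). The fall of the processed C1qc transcript held its call in all 6 fits that left out 1 library, from −5.69 without LPS replicate 1 to −3.49 without LPS replicate 2, and the rise with HACA held likewise, from 4.69 to 2.48 without the same libraries. Reads of a mature processed transcript and of unspliced C1qc RNA cannot be told apart in this stretch.

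**Figure D3:**
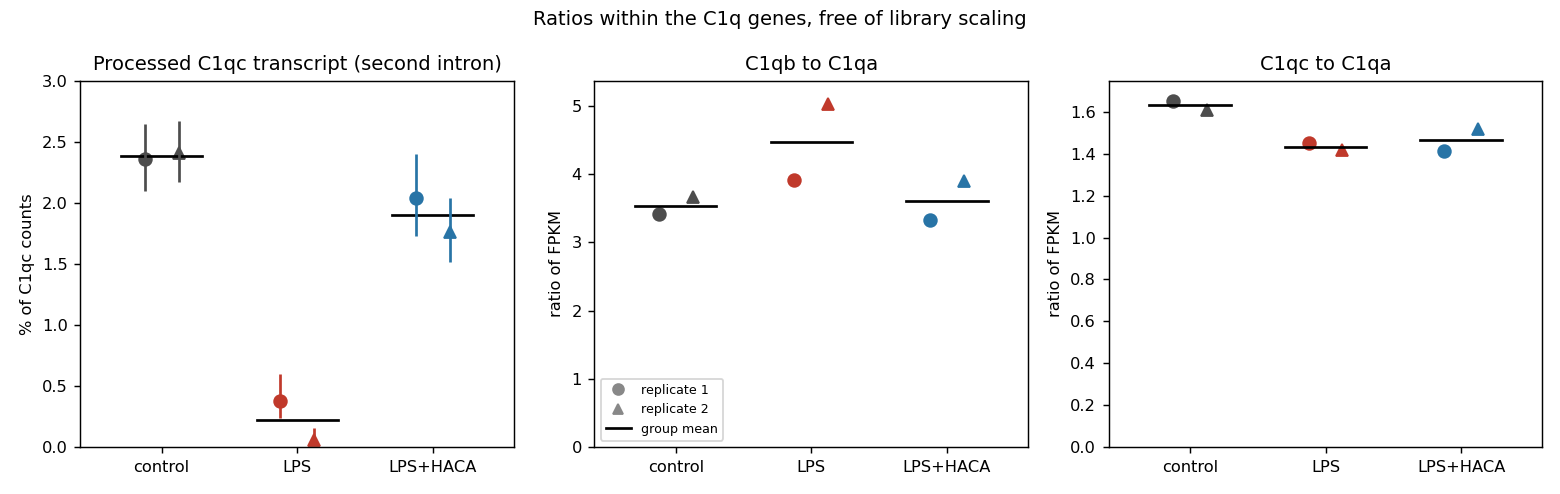
Ratios that do not depend on library scaling, per library on linear axes from 0: the processed C1qc transcript as a percentage of C1qc counts with 95% Wilson intervals, and the FPKM ratios of C1qb and of C1qc to C1qa, with bars for group means. That share is 0.376% and 0.059% in LPS and at least 1.76% in the 4 other libraries.

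C3 lies on the minus strand of chromosome 17 from 57203970 to 57228136, with 41 exons in its main transcript. It had 7141 and 13864 counts in control, 21937 and 25067 with LPS and 15686 and 20470 with LPS+HACA. In CPM this was 448.0 and 917.0, then 2161.0 and 2414.7, then 952.6 and 1384.0. Means were 682.5 ± 331.6 (SD, n = 2), 2287.8 ± 179.4 and 1168.3 ± 305.1. The 3 groups did not overlap, with LPS highest, LPS+HACA between and control lowest, although LPS+HACA replicate 1 exceeded control replicate 2 by less than either group's spread.

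C3 rose by 1.75 ± 0.35 on the log2 scale in LPS against control (95% interval 0.94 to 2.56, edgeR adjusted p = 0.00824). C3 was the 1 member higher without overlap in this comparison, as were 31.4% of all genes. The call was lost without control replicate 1 (1.30, adjusted p = 0.0522) and without LPS replicate 2 (1.67, adjusted p = 0.0804), and the value was 2.36 without control replicate 2. With library totals it was 1.10 (adjusted p = 0.0388). Over 18 alternatives the value ran from 1.10 to 2.36 and the adjusted p from 4.99e-12 to 0.0804. The ratio of C3 to C1qa counts, which needs no scaling, was 1.172 and 1.749 in control, 7.689 and 6.059 with LPS and 3.638 and 3.630 with LPS+HACA, again in 3 groups that did not overlap.

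Between LPS+HACA and LPS, C3 stood at −0.97 ± 0.34 (95% interval −1.76 to −0.18), with an unadjusted p of 0.0227 and an edgeR adjusted p of 0.101. The interval excludes 0 and the value missed the threshold over all genes. C3 and C5ar1 were the 2 of 7 members lower without overlap, as were 27.3% of all genes. Higher without overlap were 0 members (30.3% of all genes), and limma-voom and DESeq2 likewise called 0 members in this comparison. With library totals the value of C3 was −0.32. With a replicate block C3 was called lower (−1.01, edgeR adjusted p = 0.00651), where 2356 of all 17113 genes were lower against 1312 without the block. It was also called lower without a filter on low counts (−0.94, edgeR adjusted p = 0.000829, 1755 of 29118 genes lower). C3 itself passes that filter, so this setting changes only which other genes enter the fit. Against control, LPS+HACA stood at 0.78 ± 0.34 (−0.02 to 1.57, adjusted p = 0.444).

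Properdin binds and stabilises the alternative pathway convertase. Its gene Cfp, on chromosome X from 20925454 to 20931555, was at 723.4 and 876.4 CPM in control, 621.6 and 940.9 with LPS and 479.5 and 667.0 with LPS+HACA. LPS spanned the control pair, and both LPS+HACA libraries were below both control libraries. The log2 fold change was −0.03 ± 0.27 (edgeR adjusted p = 0.939) for LPS against control and −0.45 ± 0.27 (adjusted p = 0.303) for LPS+HACA against LPS, and library totals turned the latter to 0.22. LPS+HACA stood at −0.48 ± 0.27 against control (adjusted p = 0.584).

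Factor B could not be measured. Cfb lies on chromosome 17 from 34856374 to 34862518 and has 8 annotated transcripts of which 62 of 2825 exonic bases are own. It also overlaps the gene Gm20547 and had 0 counts in all 6 libraries. These zeros come with almost no countable sequence and give no measure of Cfb expression.

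C3ar1, the receptor for C3a, has 1 transcript of 4305 bases on chromosome 6 (122847138 to 122856161). It was at 1421.9 and 1490.7 CPM in control, 1827.7 and 1216.2 with LPS and 1709.6 and 1287.7 with LPS+HACA. The treated pairs spanned the control pair, with replicate 1 high and replicate 2 low in each. The log2 fold change was 0.06 ± 0.25 (95% interval −0.52 to 0.64) for LPS against control, −0.02 ± 0.25 (−0.60 to 0.56) for LPS+HACA against LPS and 0.04 ± 0.25 (−0.54 to 0.62) for LPS+HACA against control. With library totals the first 2 of these turned to −0.55 and 0.60, neither called.

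C5ar1, the C5a receptor on chromosome 7 (16246743 to 16259540), was counted over 91 of 2570 exonic bases. Nearly all its counts were in 1 of its 3 annotated transcripts, whose 89 own bases are a part of its first exon (16259145 to 16259338) that the other two do not include. The gene had 90 and 145 counts in control, 94 and 158 with LPS and 61 and 112 with LPS+HACA. In CPM this was 5.646 and 9.590, 9.260 and 15.2, and 3.705 and 7.573. LPS overlapped control, and both LPS+HACA libraries were below both LPS libraries.

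The log2 fold change of C5ar1 was 0.68 ± 0.45 (edgeR adjusted p = 0.28) for LPS against control. It was −1.12 ± 0.45 for LPS+HACA against LPS (95% interval −2.16 to −0.08, unadjusted p = 0.038, adjusted p = 0.138). With library totals these were 0.01 and −0.45, neither called. LPS+HACA stood at −0.44 ± 0.45 against control (adjusted p = 0.835). With a replicate block C5ar1 was called lower in LPS+HACA against LPS (−1.15, edgeR adjusted p = 0.0105). It was also called lower there without a filter on low counts (−1.09, edgeR adjusted p = 0.0311), a filter that C5ar1 itself passes. The C5ar1 values describe the counted stretch, and a change in isoform use cannot be told apart from a change in C5ar1 level.

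Serping1, the gene of the C1 inhibitor on chromosome 2 (84765387 to 84775444), had 9 counts in all: 1 and 0 in control, 5 and 0 with LPS and 3 and 0 with LPS+HACA. All 9 were in replicate 1 of a group. A floor of 3 counts corresponded to 0.182 to 0.296 CPM, and Serping1 was not tested.

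Levels of different genes can be set side by side only per length. The authors' FPKM values divide by the full transcript length and so understate genes counted over part of their bases, so the order was also taken from CPM per kilobase of own bases of each gene's main transcript, a measure added after the data had been seen. C5ar1, Cfb and Serping1 were left out. In control this level was 1548.7 for C1qb, 840.8 for C1qc, 596.4 for Cfp, 436.0 for C1qa, 338.3 for C3ar1 and 188.9 for C3, and no neighbours overlapped between libraries. In LPS it was 1490.4 for C1qb, 633.3 for C3, 583.8 for Cfp, 570.0 for C1qc, 353.5 for C3ar1 and 326.7 for C1qa. C3, Cfp and C1qc overlapped there, as did C3ar1 with C1qa. In LPS+HACA the order was C1qb (1132.7), C1qc (544.5), Cfp (428.5), C3ar1 (348.1), C3 (323.3) and C1qa (309.2), and from C1qc down each overlapped the next. The mean FPKM of C3 was 130.6 in control, the last of the 6, and 435.2 in LPS, the fourth behind C1qb (1445.7), Cfp (467.5) and C1qc (455.2), so its place in LPS depended on the length used.

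Replicates of one group differed in the same direction for most members. For C1qb the log2 CPM of replicate 2 minus that of replicate 1 was 0.56 in control, 0.87 with LPS and 0.77 with LPS+HACA. C1qa, C1qc, Cfp and C5ar1 were also higher in replicate 2 of every group, by 0.28 to 1.03. For C3 the difference was 1.03 in control, 0.16 with LPS and 0.54 with LPS+HACA, so its control pair was the widest of the 3. C3ar1 ran the other way in the treated groups, at −0.59 in LPS and −0.41 in LPS+HACA, against 0.07 in control.

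Other marker lists moved with the replicate number in the same libraries. The 8 stromal markers summed to 47.2, 32.4 and 49.8 CPM in replicate 1 of control, LPS and LPS+HACA, and to 1.72, 2.601 and 1.352 in replicate 2, with Sparc at 0 throughout, and 4, 3 and 7 of the 8 were higher in replicate 1. The 8 neutrophil markers summed to 7.59, 13.8 and 4.98 CPM in replicate 1 and to 40.0, 64.2 and 37.1 in replicate 2, with S100a9 and Ly6g at 0, and 1, 0 and 0 of the 8 were higher in replicate 1. S100a9 has 13 own bases of 522, so its zeros give no measure of its expression. Of 8 cell cycle genes all 8 were higher in replicate 1 of each group, their sums being 718.7, 1918.1 and 1413.2 CPM against 143.9, 1007.8 and 334.4. Mki67 led these sums, with 1422.7 and 988.4 CPM in LPS against 496.7 and 127.7 in control. The group means of Ccnb1, Cdk1, Birc5 and Aurkb were lower in LPS than in control, and those of Mki67, Top2a, Ccnb2 and Plk1 higher. The part of these lists in the differences of the complement genes was not tested. The 6 dendritic cell markers summed to 8.16 and 10.2 CPM in control, 24.9 and 26.9 in LPS, and 10.99 and 12.58 with LPS+HACA. The higher sum in LPS came mainly from Xcr1, which led the list in LPS with 18.7 and 13.6 CPM against 1.443 and 1.124 in control and 3.765 and 2.096 with LPS+HACA, while Zbtb46 had means of 5.881, 6.352 and 7.638 CPM in control, LPS and LPS+HACA. The part of this list in the C3 result was not tested. Sums for mast, B, T and NK and erythroid cells were at most 2.25 CPM in any library.

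**Figure D4:**
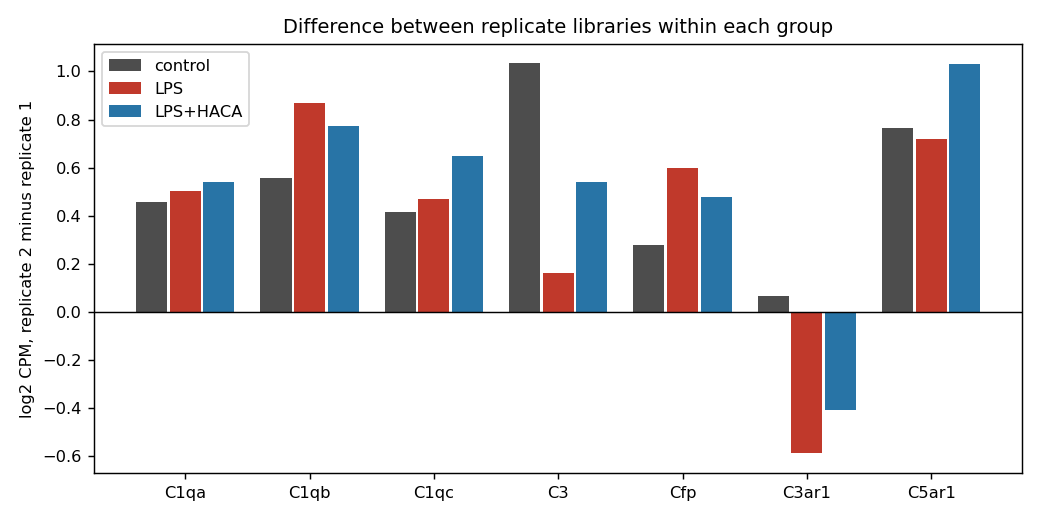
Log2 CPM of replicate 2 minus replicate 1 for each tested complement gene, as bars from 0 for control, LPS and LPS+HACA. C1qa, C1qb, C1qc, C3, Cfp and C5ar1 are positive in all groups, with C3 in control at 1.03, and C3ar1 is negative in LPS (−0.59) and LPS+HACA (−0.41).

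Of 49 further genes of the pathway, 20 passed the filter on low counts and 29 did not. In LPS against control 1 of the 20 was higher and 4 were lower (15.9% and 14.3% of all genes), with a median log2 fold change of −0.38 against −0.053 over all genes. Against LPS, LPS+HACA had 1 higher and 0 lower of 20 (5.74% and 7.67% of all genes, median 0.13 against 0.059), with 6 at an unadjusted p under 0.05 beside 5274 of all 17113 genes, limma-voom calling 0 in either direction and DESeq2 1 higher and 0 lower. Against control, LPS+HACA had 0 of 20 called (0.894% higher and 0.257% lower over all genes), and 0 also with limma-voom and DESeq2. There 0 of the 20 had an unadjusted edgeR p under 0.05, beside 2000 of all 17113 genes. The median was −0.20 against 0.004. Of the terminal components, Hc (the C5 gene) had 7 counts and C9 had 6 over all libraries, C8g had 30 to 71 a library, and C6 and C7 had 0. C8g overlaps the gene Fbxw5, and 36.8% of its exonic bases were own. C8a, with 3 own bases of 3636, was not measured. The initiating lectins Mbl1 and Mbl2 were likewise at 0.

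Itgax, the alpha chain of complement receptor 4, was the 1 gene higher in LPS. It was at 11.5 and 16.7 CPM in control, 22.7 and 46.2 with LPS and 12.9 and 19.3 with LPS+HACA, so LPS lay above the other groups, which overlapped. It rose by 1.28 ± 0.40 (edgeR adjusted p = 0.0427), a call lost without control replicate 1, control replicate 2 or LPS replicate 2 (adjusted p = 0.242, 0.107 and 0.178), with a value of 0.68 in the last of these. Library totals gave 0.60 (adjusted p = 0.216). Over 17 alternatives the adjusted p ran from 0.00125 to 0.242. LPS+HACA stood at −1.10 ± 0.40 against LPS (adjusted p = 0.104).

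Cd93, a transmembrane protein first described as a C1q receptor, was at 1570.6 and 1460.4 CPM in control, 1065.0 and 842.7 with LPS and 1138.6 and 1169.4 with LPS+HACA. The 3 groups did not overlap, and LPS was lowest. It fell by 0.67 ± 0.20 (edgeR adjusted p = 0.0371), and 5 of the 6 fits that left out 1 library lost the call, with adjusted p-values of 0.0729 to 0.189, the exception being that without LPS replicate 1. With library totals the value was −1.29. Colec12, a scavenger receptor of the collectin family, was at 4.517 and 5.556 CPM in control, 1.478 and 0.867 with LPS and 3.036 and 2.907 with LPS+HACA. It fell by 2.10 ± 0.41 (adjusted p = 0.0075), and the call was lost without control replicate 2 (adjusted p = 0.0632). For LPS+HACA against LPS, Cd93 stood at 0.27 ± 0.20 (adjusted p = 0.384) and Colec12 at 1.34 ± 0.41 (adjusted p = 0.0702). Library totals gave −2.72 for Colec12 in LPS against control, and called both genes higher with HACA added (Cd93 0.90, adjusted p = 0.0309, and Colec12 1.96, adjusted p = 0.0222).

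Cd46 encodes membrane cofactor protein, a regulator that helps to inactivate C3b. Its span overlaps other annotated genes, among them A330023F24Rik, Mir29b-2 and Mir29c, and 69.3% of its exonic bases were own. It was at 9.598 and 12.7 CPM in control, 5.812 and 3.757 with LPS and 9.656 and 13.1 with LPS+HACA. LPS was below both other groups, which overlapped. Cd46 fell by 1.22 ± 0.34 in LPS against control (edgeR adjusted p = 0.0298) and rose by 1.25 ± 0.34 in LPS+HACA against LPS (adjusted p = 0.0491). The fall was lost without control replicate 1, control replicate 2 or LPS replicate 2 (adjusted p = 0.0783, 0.19 and 0.0901), and the rise in 5 of the 6 fits that left out 1 library (0.0981 to 0.227) and with limma-voom (0.0518). The sixth, without LPS replicate 1, kept it. With library totals the values of Cd46 were −1.84 and 1.87. The fourth gene lower in LPS was Itgam, the alpha chain of complement receptor 3, which is outside the rule for named genes because its mean was under 5 CPM. It was counted over 7.09% of its exonic bases, with 29 and 26 counts in control, 2 and 2 with LPS and 29 and 9 with LPS+HACA, and its summed counts of 55 in control and 4 in LPS gave a ratio of 9.09 after TMM scaling of the libraries (exact 95% interval 3.36 to 34.5, counting error only, edgeR adjusted p = 0.0185). That call was lost with limma-voom (adjusted p = 0.056) and without control replicate 1, control replicate 2 or LPS replicate 2 (0.0824, 0.0779 and 0.054).

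**Figure D5:**
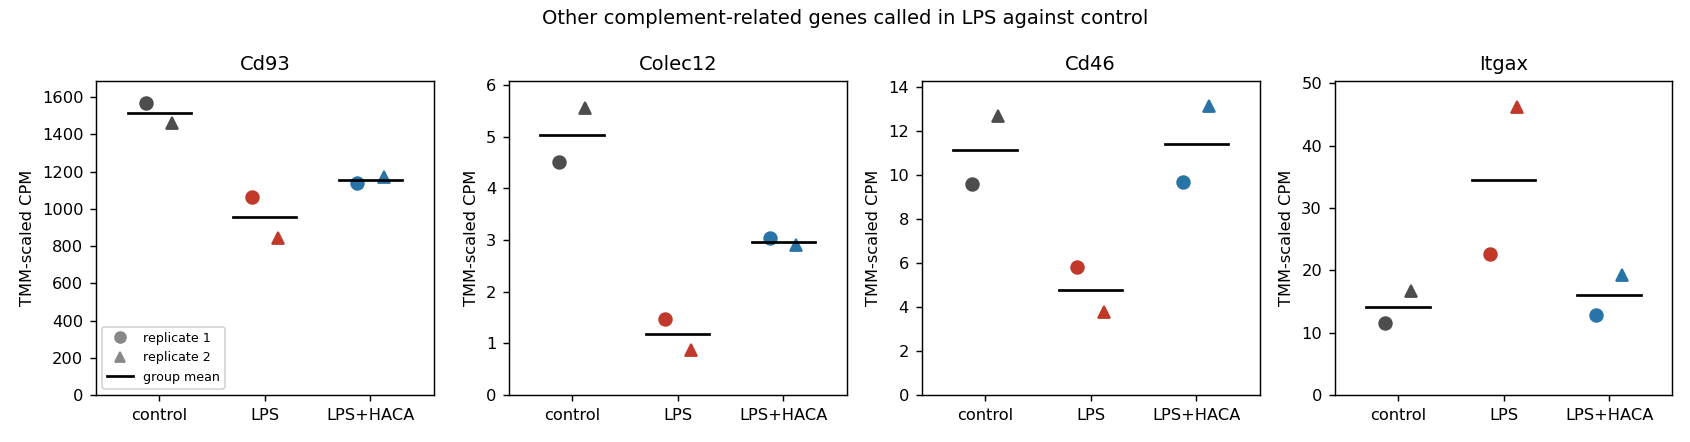
TMM-scaled CPM of Cd93, Colec12, Cd46 and Itgax in every library, on linear axes from 0, with circles for replicate 1, triangles for replicate 2 and bars for group means. Cd93, Colec12 and Cd46 are lowest in the 2 LPS libraries and Itgax is highest in them.

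The genes whose profile over the 6 libraries was nearest to that of a member were found among 8686 tested genes with a mean of at least 5 CPM, by the Euclidean distance of mean-centred log2 CPM. For C3 these were Gm42514 (distance 0.22), Camk2d (0.32) and Cybb (0.36), the last encoding a subunit of the phagocyte oxidase. Cybb was at 2063.1 and 3122.2 CPM in control, 8460.9 and 10144.1 with LPS and 3336.4 and 5445.7 with LPS+HACA. For C1qa they were Il18bp (0.20), Itm2b (0.21) and Ehmt2 (0.22), and for C5ar1 Piezo1 (0.31), Snhg17 (0.36) and Rps10 (0.42). The distances describe 6 libraries that share their scaling and carry no test.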

How the data were processed

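The authors deposited raw counts per annotated transcript, whole numbers per the file headers and values, and FPKM values. Each FPKM value equalled the count divided by transcript length and 1 factor per library, within 0.1% for 99.7% of the 7643 transcripts that reached 50 counts in all libraries. Per the submitters' processing notes the tools were STAR 2.5.4b, edgeR 3.28.1, DESeq2 1.26.0, limma, CASAVA and Trim Galore and the builds GRCm38 and GRCh38, in roles that the notes do not state. Which program counted, and how it treated reads shared by transcripts, is not given in the sources used here. Of 142647 transcripts 141524 matched GENCODE vM21, in 55263 genes, and the 1123 others, with 0.115% of the counts or less per library, were left out. Levels per kilobase of own bases were added after the data had been seen. Transcripts with own bases held 99.933% of counts, and genes typed misc_RNA held 24.3% to 29.2%.

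The rows were transcripts where genes had been planned, so counts were summed per gene. One edgeR 4.0.16 quasi-likelihood model in R 4.3.3 (filterByExpr, TMM, robust, group as its only term, 3 residual degrees of freedom) was fitted to all 6 libraries, with Benjamini-Hochberg adjustment over 17113 genes and calls at an adjusted p under 0.05. The SE was taken from the test: the size of the log2 fold change over the root of F. Alternatives used DESeq2 1.42.0, limma 3.58.1, other scalings and filters, log2 FPKM with pseudocounts of 1 and 0.1, a replicate block, and each library left out. The fit of transcripts and the cell cycle list were added after the data had been seen. The procedure was tested on simulated counts. Replicate libraries differed beyond counting noise (chi-square per degree of freedom 23.3 to 55.5).

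The members and gene lists were chosen with earlier results of these data known, so no list counts as independent evidence. All 9 members are named. Of the 49 other complement genes, those called in LPS against control or LPS+HACA against LPS with a group mean of at least 5 CPM are named, and so are the 3 genes nearest in profile to C1qa, C3 and C5ar1.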

Additional observations from a re-analysis of the deposited data

How the results depend on the processing

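With library totals in place of TMM, 3 members were lower in LPS against control, 0 other complement genes were higher there and 5 were higher in LPS+HACA against LPS. That scaling also turned LPS+HACA against LPS to 0.58 for C1qa, 0.28 for C1qb, 0.62 for C1qc, 0.22 for Cfp and 0.60 for C3ar1 (log2), and C3ar1 in LPS against control to −0.55. Over all genes it gave 1417 higher and 5111 lower (21.7% higher, 52.6% with TMM) in LPS against control, 3501 and 522 (87.0%, 42.8% with TMM) in LPS+HACA against LPS, and 126 and 24 in LPS+HACA against control. Without a filter on low counts, 2 members (C3 and C5ar1) and 1 other gene were lower and 3 other genes higher in LPS+HACA against LPS. In LPS+HACA against control 1 member (C3) was then higher. Of all 29118 genes this setting called 1845 higher and 1755 lower in the first of these comparisons, and 661 and 250 in the second. DESeq2 size factors and limma-voom each left 0 other genes higher in LPS+HACA against LPS. Values near 0 changed sign for C1qc in LPS+HACA against LPS with only the groups compared (0.0054), for C3ar1 there without a filter (0.0153), with those groups only (0.0253) and with its main transcript (0.0415), and for C3ar1 in LPS+HACA against control with log2 FPKM plus 1 (−0.0166) or 0.1 (−0.0167). With only the groups compared, calls were lost for Itgax (adjusted p = 0.058) and Cd93 (0.0689) in LPS against control and for Cd46 in LPS+HACA against LPS (0.0976). Both Cd46 calls were lost on log2 FPKM plus 1 (0.0714 and 0.105) or 0.1 (0.0783 and 0.111), and that of Itgax with its main transcript (0.0593). The cause was not tested.

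The replicate number is not stated to mark a shared culture or day. Differences between replicates correlated across genes at 0.30 to 0.49 between groups, and at 0.47 to 0.75 over the 8700 genes with a mean of at least 5 CPM. With a replicate block, 1 member (C1qc, −0.60, adjusted p = 0.0136) was lower in LPS against control. For LPS+HACA against LPS the block left 2 members lower (C3, −1.01, adjusted p = 0.00651, and C5ar1, −1.15, adjusted p = 0.0105), 3 other genes higher and 1 lower, where it called 1955 of all genes higher and 2356 lower (983 and 1312 without it). Over all genes it called 3506 higher and 3384 lower in LPS against control. It gave 1 member higher (C3) and 1 lower (C1qc) in LPS+HACA against control, with 628 and 307 over all genes.

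With each library left out, members higher in LPS against control numbered 0 to 1. Other genes numbered 0 to 1 higher and 0 to 5 lower there, and 0 to 3 higher and 0 to 1 lower in LPS+HACA against LPS. Values that changed sign were C1qb (−0.55 to 0.32), Cfp (−0.36 to 0.24) and C3ar1 (−0.25 to 0.33) in LPS against control. The LPS+HACA against LPS values were C1qa (−0.38 to 0.20), C1qb (−0.84 to 0.10), C1qc (−0.41 to 0.28) and C3ar1 (−0.29 to 0.30). Those for LPS+HACA against control were C3ar1 (−0.16 to 0.23), C5ar1 (−1.04 to 0.0113), Itgax (−0.13 to 0.48) and Cd46 (−0.20 to 0.25). A lone library in a group is assumed to vary like the other groups. Few countable bases limit C5ar1 and Cfb, and few counts limit Serping1.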
